A study of Mus musculus with 20 samples.

Results

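Cytosolic ribosomal proteins were taken as every gene name of the array that consists of Rpl, Rps or Rplp, a number and at most one of the letters a, l, x or y. This rule gave 79 genes with 135 probes, out of 27827 gene names and 41174 probes on the arrays. They comprised 31 proteins of the small subunit, 45 of the large subunit and the 3 acidic proteins of the large subunit's stalk, Rplp0, Rplp1 and Rplp2. Of the 79 genes, 78 were well above background on all 20 arrays and were tested in every comparison. The remaining gene, Rpl39l, a copy of Rpl39 that is known from the testis, had 2 probes and was well above background on 0 of 20 arrays, so it was not tested. Rpl10l and Rps4y were not among the gene names.

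Each ribosome holds ribosomal RNA and about one copy of each ribosomal protein, so cells make these proteins in matched amounts. Their messages begin with a run of pyrimidines, the terminal oligopyrimidine (TOP) tract, through which the mTOR kinase and the RNA-binding protein Larp1 control how fast they are translated. In the kidney, tubule cells that survive ischemia must resume protein synthesis during repair. Several ribosomal proteins also act outside the ribosome. Rpl5, Rpl11 and Rpl23 can bind Mdm2 and so stabilise p53, and Rps6 is the classical substrate of the S6 kinases.

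Total kidney RNA of male C57BL/6 mice, aged 8 to 12 weeks, was measured on 20 Agilent one-colour arrays, with 4 arrays in each of 5 groups. Control mice are labelled only as controls, and no surgery, treatment or sham operation is described for them. IRI mice had both renal pedicles clamped for 45 min and were killed after 6 h of reperfusion. IRI+Hemin mice received 25 mg/kg of hemin, an inducer of heme oxygenase 1, 24 h before the same injury. IPC+IRI mice had ischemic preconditioning, which was 15 min of clamping, 7 days before the same injury. Hemin mice received 25 mg/kg of hemin and no surgery. The values are log2 expression, the log2 of a gene's processed signal over the array's 75th percentile, so that 0 lies at that percentile. A gene was called changed at an adjusted p below 0.05 in limma, with no fold cutoff. Unless an overlap is stated, the largest rises and falls named for a comparison were taken from called genes whose groups did not overlap. Their separation is part of the choice and not a result. The labels number the arrays of a group as replicates without saying that each came from its own mouse, so the p-values measure the spread between these arrays.

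Each group was hybridised on 1 slide of its own, and the 5 slides were scanned on 3 days. Control and IRI shared a scan day, IPC+IRI and Hemin shared another, and IRI+Hemin was scanned alone. Slide and group cannot be told apart in any comparison, and scan day and group cannot be told apart except in IRI vs Control and in IPC+IRI vs Hemin. The 75th percentile of the signal lay between 147 and 358 on the 20 arrays, and the share of probes that the software marked as well above background between 56.8% and 67.3%. Markers of proximal tubule, thick limb, collecting duct and podocytes were present in all groups. The summed level of 7 leukocyte markers lay between -0.24 and 0.14 in Control and between -0.26 and 1.01 in Hemin. It was higher in the injured groups, at 1.86 to 3.16 in IRI, 2.75 to 4.34 in IPC+IRI and 1.47 to 3.42 in IRI+Hemin. Not all of these markers rose. Of 6 tested in IRI vs Control 3 were higher and 1 lower. Of 7 tested, 4 were higher and 1 lower in IPC+IRI vs Control, and likewise in IRI+Hemin vs Control. The summed level of 4 proximal tubule markers lay between 8.26 and 8.46 in Control, 7.95 and 8.16 in Hemin, 7.91 and 8.39 in IRI, 7.38 and 7.86 in IPC+IRI and 7.41 and 7.90 in IRI+Hemin. The summed level of 4 erythroid markers was 3.41 to 5.76 in IPC+IRI, 6.25 to 6.60 in IRI, 5.26 to 7.27 in IRI+Hemin, 4.98 to 7.13 in Control and 4.995 to 5.97 in Hemin, and the 3 of them that were tested were lower in IPC+IRI vs IRI, with a median of -1.61. The part of these cell types in the results below was not tested. In whole kidney, fewer cells of a type and less RNA per cell cannot be told apart.

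Control replicate 2 stood apart in these genes. It was the highest of the 4 Control arrays for 67 of 78 ribosomal protein genes, or 85.9%, against 43.5% of all 14534 genes well above background on every array. The median ribosomal protein gene lay 0.44 above the mean of the other Control arrays, against 0.07 for all genes. Its 75th percentile was the lowest of the 20 arrays, at 147. With this array the median standard deviation of a ribosomal protein gene in Control was 0.233, and without it 0.071. Counts and medians of the whole family in each comparison with Control are therefore given with and without Control replicate 2, as are the changes of the genes that differed most from Control. Counts by subunit, of the order of group means and of start site sequences rest on all arrays.

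The start sites of members that differed most between groups, and of some that did not follow them, are shown because the first bases of the message carry the TOP tract. Each line gives 20 bases before and 20 bases from the start site on the transcript strand in RefSeq (GRCm38.p6), with CTTTC and CTTCC, 2 short pyrimidine runs searched for, in capitals. A run in the first 20 bases of a line, as in Rpl5, lies before the annotated start and is not part of the message.
Rpl5, chr5:107900508-107900547, plus strand: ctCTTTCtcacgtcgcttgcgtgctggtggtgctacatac
Rps26, chr10:128626487-128626526, minus strand: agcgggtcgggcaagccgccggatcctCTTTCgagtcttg
Rps7, chr12:28635934-28635973, minus strand: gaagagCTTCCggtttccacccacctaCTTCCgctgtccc
Rps9, chr7:3704021-3704060, plus strand: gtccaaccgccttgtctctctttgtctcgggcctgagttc
Rpl14, chr9:120571497-120571536, plus strand: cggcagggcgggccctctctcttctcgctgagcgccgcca
Rps6, chr4:86857348-86857387, minus strand: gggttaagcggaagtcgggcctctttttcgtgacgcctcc
Rplp2, chr7:141447631-141447670, plus strand: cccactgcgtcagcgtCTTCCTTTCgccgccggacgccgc
Rpl10a, chr17:28328545-28328584, plus strand: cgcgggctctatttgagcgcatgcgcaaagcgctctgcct
Rps15, chr10:80292411-80292450, plus strand: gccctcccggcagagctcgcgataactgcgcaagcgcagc
Rpl10a and Rps15, which were lower in several comparisons, held neither run in these windows, and neither did Rps9, Rpl14 and Rps6. In Rps9, Rpl14 and Rps6 other pyrimidine stretches cross the start, so lacking both runs does not mean lacking a TOP tract. RefSeq promoter entries matched 58 of the 79 genes. On the transcript strand CTTTC was in the window of 19 of the 58, or 32.8%, against 6.44% of 27025 genes, and CTTCC in 15, or 25.9%, against 10.3%. On both strands the shares were 36.2% against 11.8% for CTTTC and 43.1% against 20.5% for CTTCC. The core bound by ETS factors, CGGAAG, was found on either strand of the 300 bases around the start in 40 of 58, or 69%, against 18.8% of all genes. Read on the opposite strand, it overlaps the latter of these pyrimidine runs, CTTCC.

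The probes that carry the main results were 60 bases long, and their mm9 positions are those of the array annotation. They are shown for Rpl5, Rps26 and Rps9, which rose, and for Rpl10a and Rps15, which fell.
Rpl5, chr5:108332860-108333767, plus strand, across an intron: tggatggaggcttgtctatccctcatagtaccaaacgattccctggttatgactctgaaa
Rps26, chr10:128062363-128063147, minus strand, across an intron: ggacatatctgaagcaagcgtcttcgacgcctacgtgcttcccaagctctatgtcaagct
Rps9, chr7:3656257-3656316, plus strand: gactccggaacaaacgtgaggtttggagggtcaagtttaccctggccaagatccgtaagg
Rpl10a, chr17:28466425-28467486, plus strand, across an intron: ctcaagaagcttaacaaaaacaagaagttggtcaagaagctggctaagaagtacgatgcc
Rps15, chr10:79756458-79756517, plus strand: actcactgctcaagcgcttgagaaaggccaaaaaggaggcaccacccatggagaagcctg
Each of these 5 genes had 1 probe. Ribosomal protein genes have many processed copies in the genome, and a probe, whether within 1 exon or across an intron, may not tell a message from a transcribed copy.

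The family stood at 2 levels over the 5 groups. The median of the 78 genes was 4.85, 5.13, 4.75 and 4.72 on the Control arrays, and between 4.80 and 4.96 on the IRI arrays. It lay between 5.12 and 5.28 in IRI+Hemin, between 5.27 and 5.44 in IPC+IRI and between 5.13 and 5.28 in Hemin. The arrays of IRI, and of Control apart from replicate 2, were all below every array of the other groups, and Control replicate 2 lay among the IRI+Hemin and Hemin arrays. As means of the 4 arrays, Control had 4.86 ± 0.19 (SD) and IRI 4.89 ± 0.08, while Hemin had 5.21 ± 0.07, IRI+Hemin 5.20 ± 0.07 and IPC+IRI 5.36 ± 0.09. Without replicate 2, Control had 4.77 ± 0.07 (n = 3).

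**Figure D1:**
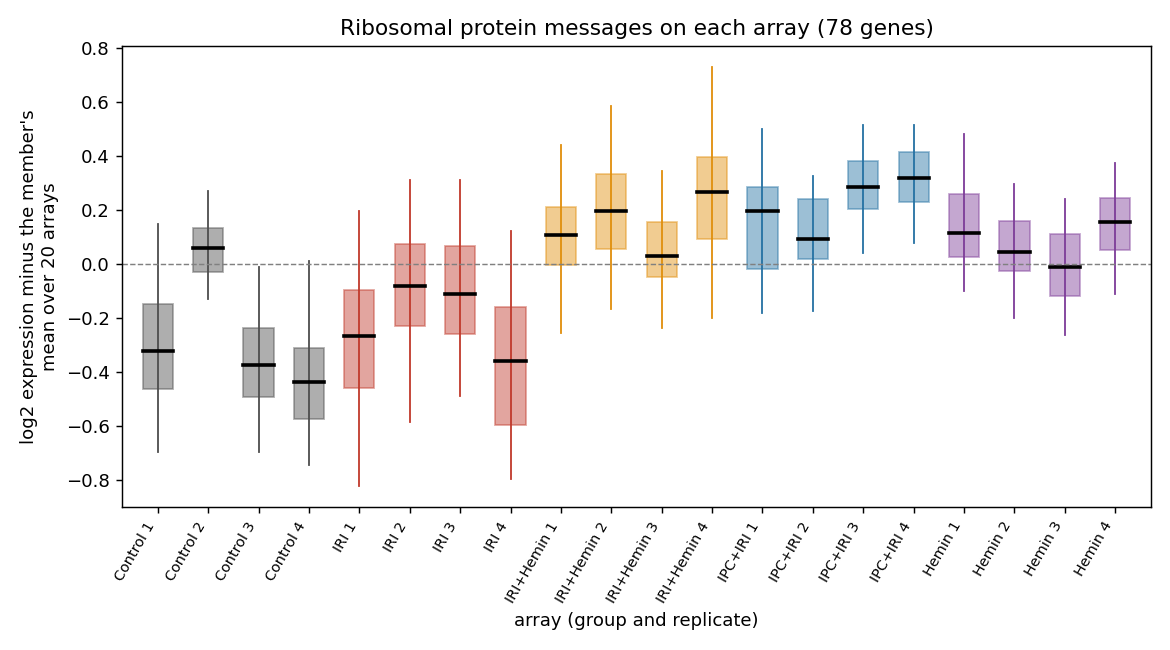
Log2 expression of each of the 78 ribosomal protein genes minus its own mean over the 20 arrays, shown per array and grouped by condition. The array medians lie between -0.437 and -0.083 in IRI and in the Control arrays other than replicate 2. Control replicate 2 is at 0.06, and the other groups lie between -0.012 and 0.317.

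The same order held gene by gene. The Control and IRI means were both below the means of the other 3 groups for 55 of the 78 genes, or 70.5%, against 19.9% of the 14534 genes. They were both above them for 4 genes, or 5.13%, against 15.9%. The lowest mean was in Control for 49 genes, or 62.8%, against 20.4%, and the highest was in IPC+IRI for 40, or 51.3%, against 13.1%. Of the 78 genes, 68 were called in at least 1 of the 7 comparisons of groups. The share of all genes called in at least 1 was not counted. In IRI vs Control alone 17.1% of all genes were higher and 33.9% lower, so the 68 is not a result about the family. The 10 ribosomal protein genes called in none of the 7 comparisons, with all arrays, were Rpl23, Rpl23a, Rpl27a, Rpl30, Rpl39, Rpl41, Rps15a, Rps19, Rps24 and Rps29. Without Control replicate 2, Rps19 was called higher in IPC+IRI vs Control and Rpl23a lower in IRI+Hemin vs Control.

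IRI vs Control asks what ischemia and reperfusion changed. Few ribosomal protein messages differed after 6 h, and none by 2-fold. Of 78 genes, 4 were higher and 2 lower in IRI, or 5.13% and 2.56%, against 17.1% of all 17719 genes tested higher and 33.9% lower. The median change was 0.07, against -0.17 over all genes. Rpl12, at the base of the stalk, was 1.26-fold higher (log2 0.33 ± 0.13 SE, limma adjusted p = 0.0425), and Rpl17, Rpl10a and Rpl3 differed by 0.32, 0.25 and 0.25. The groups of Rpl12 and Rpl17 overlapped. All 6 called genes belong to the large subunit, in which 4 of 44 were higher and 2 lower, while 0 of 31 small subunit genes was called. The difference between subunits was not tested. It did not hold without Control replicate 2, when Rps13, Rps16, Rps10, Rps14 and Rps6 of the small subunit were called higher.

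Rpl21 and Rpl31 were the genes that fell after IRI. Rpl21 had 0.70, 1.63, 0.67 and 0.36 in Control and -0.12, 0.20, 0.32 and -0.09 in IRI. The fall of Rpl21 was 1.69-fold (log2 -0.76 ± 0.28 SE, limma adjusted p = 0.0282). The change came from a probe of a cDNA clone at chr5:147644677-147644736, whose mean went from 1.65 to 0.79, while the probe of the RefSeq message at chr5:147648267-147648326 was at -1.31 and -1.39. Rpl31 had -1.12, -0.74, -1.25 and -1.12 in Control and -1.50, -1.37, -1.38 and -1.24 in IRI. The values of Rpl31 overlapped, since Control replicate 3 was just below IRI replicate 4, and the log2 change was -0.32.

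Without Control replicate 2, 12 genes were higher and 0 lower in IRI vs Control, or 15.4% higher against 17% of all genes, and the median change was 0.19. These 12 were Rpl12, Rpl17, Rpl36, Rpl19, Rps13, Rpl8, Rpl34, Rps16, Rpl3, Rps10, Rps14 and Rps6, with changes from 0.22 to 0.45. Rpl10a, Rpl21 and Rpl31 were not called without that array, and the change of Rpl21 was then -0.495. With Control replicate 4 left out instead, 0 genes were higher and 3 lower.

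Genes that serve ribosome production were also examined in IRI vs Control, in lists chosen with earlier results known. Among 68 assembly factors, 39 were higher and 2 lower, or 57.4% and 2.94%, against 17.1% and 33.9% of all genes, with a median of 0.43. With Control replicate 2 left out, 44 were higher and 2 lower. Eif6, which keeps the large subunit from joining early, differed by 1.54, the nucleolar GTPase Gnl3 by 1.51 and the kinase Riok2, which acts on the maturing small subunit, by 1.44. Of 15 genes that control growth and ribosome production, 9 were higher and 1 lower, and 8 and 1 without that array. Myc, which drives transcription of ribosomal genes, rose by 4.04 on the log2 scale, or 3.82 without that array, Eif4ebp1, the mTOR target that restrains translation, by 2.02, and the kinase Rps6ka3 by 1.57. Of 14 genes of the RNA polymerase I machinery 4 were higher, or 28.6%, and 0 lower, among them Taf1d at 0.79, Taf1a at 0.59 and Twistnb at 0.55. Of the 14, 2 were higher without Control replicate 2, and Twistnb, at 0.56, was not called.

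Among 17 other messages of the TOP class, 2 were higher and 0 lower in IRI, the splicing protein Hnrnpa1 at 0.66 and the noncoding RNA Gas5 at 0.60, while Btf3 had 0.30 and was not called. Of the 17, 4 were higher without Control replicate 2, Btf3 among them at 0.40. Of 7 ribosomal protein genes outside the naming rule, 1 was higher, Rpl22l1, the paralog of Rpl22, at 0.53, and Fau and Rpsa had 0.26 and 0.17 and were not called. Without that array 2 of the 7 were higher. Of 75 mitochondrial ribosomal proteins, which form the separate ribosome of that organelle, 4 were higher and 17 lower, or 5.33% and 22.7%, against 17.1% and 33.9% of all genes, and the median of -0.16 was near the -0.17 over all genes. The counts without Control replicate 2 were 4 and 15, with a median of -0.04. Mrps25 fell by 1.12, Mrpl34 by 0.70 and Mrpl49 by 0.67 on the log2 scale.

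**Figure D2:**
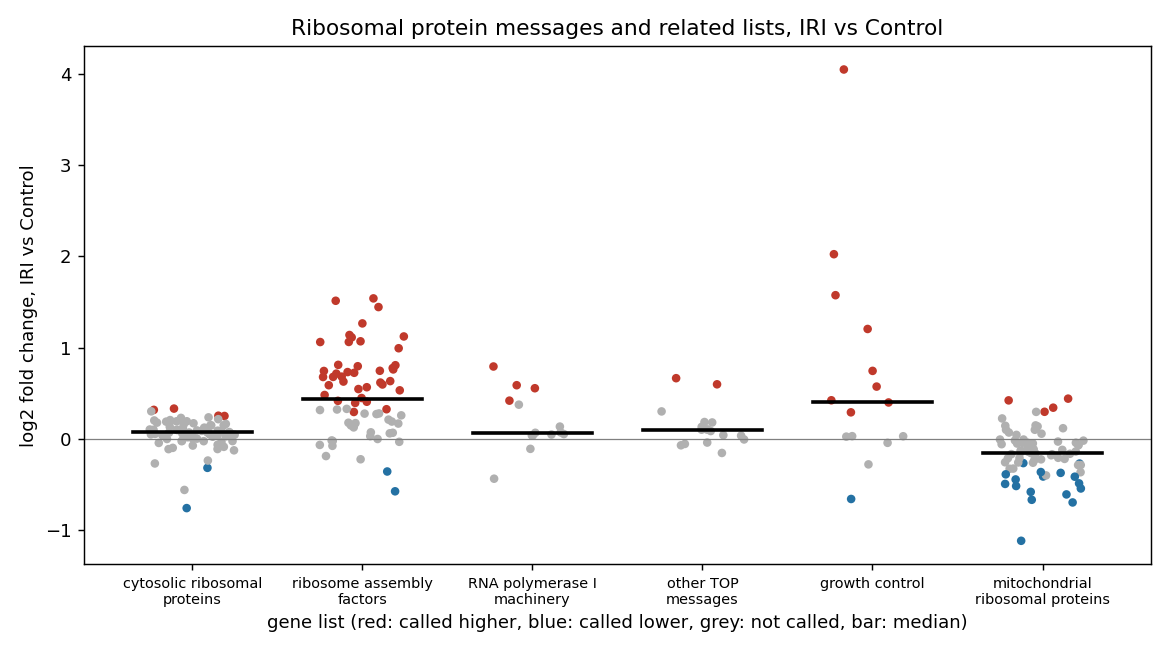
Log2 fold change in IRI vs Control of each gene (points) of the cytosolic ribosomal proteins and 5 related lists, red where called higher and blue where called lower, with the median as a bar. The medians are 0.07 for the ribosomal proteins, 0.43 for assembly factors and -0.16 for mitochondrial ribosomal proteins, and Myc is the highest point at 4.04.

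IPC+IRI vs IRI asks what preconditioning changed in the injured kidney. Most ribosomal protein messages were higher with preconditioning, by less than 2-fold except for Rpl14. Of 78 genes, 50 were higher and 3 lower, or 64.1% and 3.85%, against 26.3% higher and 17.8% lower among 17668 genes. The median change was 0.44, against 0.09 over all genes. In the small subunit 23 of 31 were higher and 1 lower, in the large subunit 25 of 44 and 2, and of the stalk proteins Rplp1 and Rplp2 were higher, by 0.56 and 0.45.

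Rpl14 rose most, from -0.64, -0.40, -0.55 and -0.65 in IRI to 0.27, 0.58, 0.54 and 0.68 in IPC+IRI, or 2.11-fold (log2 1.08 ± 0.24 SE, limma adjusted p = 0.0016). Rpl31 followed, from the IRI values above to -0.49, -0.36, -0.39 and -0.31, a difference of 0.99 with an adjusted p of 5.81e-06 in limma. Rps9 had 3.29, 3.52, 3.63 and 4.16 in IRI and 4.60, 4.36, 4.75 and 4.66 in IPC+IRI. Of the IRI arrays, replicate 4 came nearest to the IPC+IRI arrays for Rps9. Rps7, a small subunit protein that also binds Mdm2, went from 5.40, 5.66, 5.67 and 5.21 to 6.45, 6.32, 6.39 and 6.49, a rise of 0.93 on the log2 scale. Rpl5 went from 5.43, 5.79, 5.77 and 5.87 to 6.40, 6.55, 6.79 and 6.78, a 1.88-fold rise.

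Rpl4, Rpl10a and Rps15 were the genes lower in IPC+IRI vs IRI. Rpl4, which lines the tunnel through which the new chain leaves, had 3.18, 3.16, 3.19 and 3.27 in IRI and 2.43, 3.04, 2.81 and 2.87 in IPC+IRI, a fall of 1.33-fold. Rpl10a, a protein of the ribosome's other stalk, had 4.45, 4.48, 4.64 and 4.71 against 3.98, 4.28, 4.15 and 4.31, a fall of 1.32-fold. Rps15, a protein of the head of the small subunit, had 3.13, 3.44, 3.48 and 3.21 against 2.97, 2.74, 3.09 and 3.09, a fall of 1.27-fold.

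IPC+IRI vs Control sets the preconditioned and injured kidney beside the Control kidney. Here 57 of 78 ribosomal protein genes were higher and 0 lower, or 73.1% higher, against 23.2% higher and 32.8% lower among 18352 genes. The median change was 0.49, against -0.09 over all genes. All 3 stalk proteins were higher, with 24 of 31 in the small and 30 of 44 in the large subunit. Without Control replicate 2, 60 were higher and 0 lower, with a median of 0.59, and 25.3% of all genes were higher. At least 2-fold higher was 1 gene with that array, and 8 without it, Rps9, Rpl5, Rpl27, Rps7, Rps16, Rpl34, Rps20 and Rpl36a.

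Rps9 rose most against Control, 2.14-fold, from 3.26, 4.03, 3.39 and 3.32 to the IPC+IRI values above (log2 1.10 ± 0.17 SE, limma adjusted p = 4.63e-05). Rpl27 had 5.62, 6.31, 5.57 and 5.48 in Control and 6.78, 6.50, 6.75 and 6.87 in IPC+IRI, a 1.97-fold rise. Rps7 had 5.27, 5.91, 5.37 and 5.25 in Control and rose 1.95-fold. In each of these genes the highest Control value was replicate 2. Rps16 and Rpl36a, chosen in the same way, differed by 0.92 and 0.87. Without replicate 2 the changes were 1.27 for Rps9, 1.17 for Rpl27, 1.12 for Rps7, 1.05 for Rps16 and 1.01 for Rpl36a.

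IRI+Hemin vs IRI asks what hemin given before the injury changed. Of 78 ribosomal protein genes 40 were higher and 3 lower, or 51.3% and 3.85%, against 26.3% higher and 18.1% lower among 17835 genes, and the median was 0.35 against 0.08. At least 2-fold changes were seen for 5 genes, Rpl21, Rpl14, Rps26, Rpl3l and Rpl5. Among the stalk proteins 0 of 3 was called, with changes from 0.14 to 0.23, while 19 of 31 small and 21 of 44 large subunit genes were higher.

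Rps26, which lines the channel where the message leaves the ribosome, had 2.77, 3.32, 3.27 and 3.35 in IRI and 4.30, 4.42, 4.12 and 4.16 in IRI+Hemin, a 2.10-fold rise (limma adjusted p = 0.000316). Rpl5 rose 2.05-fold to 6.63, 6.84, 6.55 and 6.996. Rpl3l, the paralog of Rpl3 that is known from muscle, had -2.80, -2.43, -2.54 and -2.49 in IRI and -1.19, -1.57, -1.41 and -1.82 in IRI+Hemin. Rpl14 rose 2.32-fold to 0.57, 0.28, 0.71 and 1.07, and Rpl21 2.66-fold to 1.31, 1.97, 0.94 and 1.73, in which the clone probe differed by 1.58 and the RefSeq probe by 0.18.

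Rpl10a was the gene that fell most with hemin in the injured kidney. It went from 4.45, 4.48, 4.64 and 4.71 in IRI to 3.87, 3.75, 3.91 and 3.83 in IRI+Hemin, 1.66-fold lower (log2 -0.73 ± 0.10 SE, limma adjusted p = 2.03e-05). Rps15 fell 1.23-fold to 3.00, 3.00, 2.98 and 3.101. Rpl13 was called lower at -0.45, but its groups overlapped and its 3 probes disagreed, from -0.79 to 0.12.

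Hemin vs Control asks what hemin did without injury. Of 78 ribosomal protein genes 42 were higher and 1 lower, or 53.8% and 1.28%, against 18.5% higher and 17.6% lower among 18579 genes. The median change was 0.35, against 0.06 over all genes, and no gene reached 2-fold. Without Control replicate 2, 50 were higher and 2, Rps15 and Rpl10a, were lower, with a median of 0.46 and 22.4% of all genes higher. Rpl5, Rps26 and Rps9 were then at least 2-fold higher, at 1.16, 1.07 and 1.01. The count fell to 26, 25 of them higher, without Control replicate 3, to 27 without Control replicate 4 and to 28 without Hemin replicate 1.

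Rps26 rose 1.88-fold, from 3.23, 3.71, 3.04 and 2.91 in Control to 4.23, 4.32, 4.09 and 3.89 in Hemin (limma adjusted p = 0.00187). Rpl5 had 5.45, 6.45, 5.43 and 5.39 in Control and 6.67, 6.65, 6.48 and 6.55 in Hemin, a 1.87-fold rise. Rps9, Rps7 and Rpl27 rose by 0.84, 0.85 and 0.76 on the log2 scale, and Rps7 and Rpl27 by 1.00 and 0.95 without Control replicate 2. These genes were chosen with groups apart, and for Rpl5 Control replicate 2 lay just below the lowest Hemin array. Rps15 fell from 3.16, 3.11, 3.08 and 3.00 to 2.67, 2.65, 2.60 and 2.72, 1.34-fold lower, and its Control replicate 2 lay within the other Control values, and its change without that array was -0.42.

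IRI+Hemin vs Control gave 51 genes higher and 1 lower, or 65.4% and 1.28%, against 24.4% higher and 33.2% lower among 18489 genes, with medians of 0.44 and -0.10. Rpl3l, Rpl5 and Rps26 were at least 2-fold higher, at 1.16, 1.07 and 1.03, and Rps9 and Rpl34 followed at 0.94 and 0.93. Leaving out Control replicate 2 gave 1.38, 1.33, 1.19, 1.12 and 1.16, and Rpl13a, at 1.02, made a total of 6 genes at least 2-fold higher. Rpl10a was the gene that fell, by 0.48 on the log2 scale. Without Control replicate 2, 55 were higher and 2 lower, Rpl10a and Rpl23a, with a median of 0.55, against 26% of all genes higher.

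**Figure D3:**
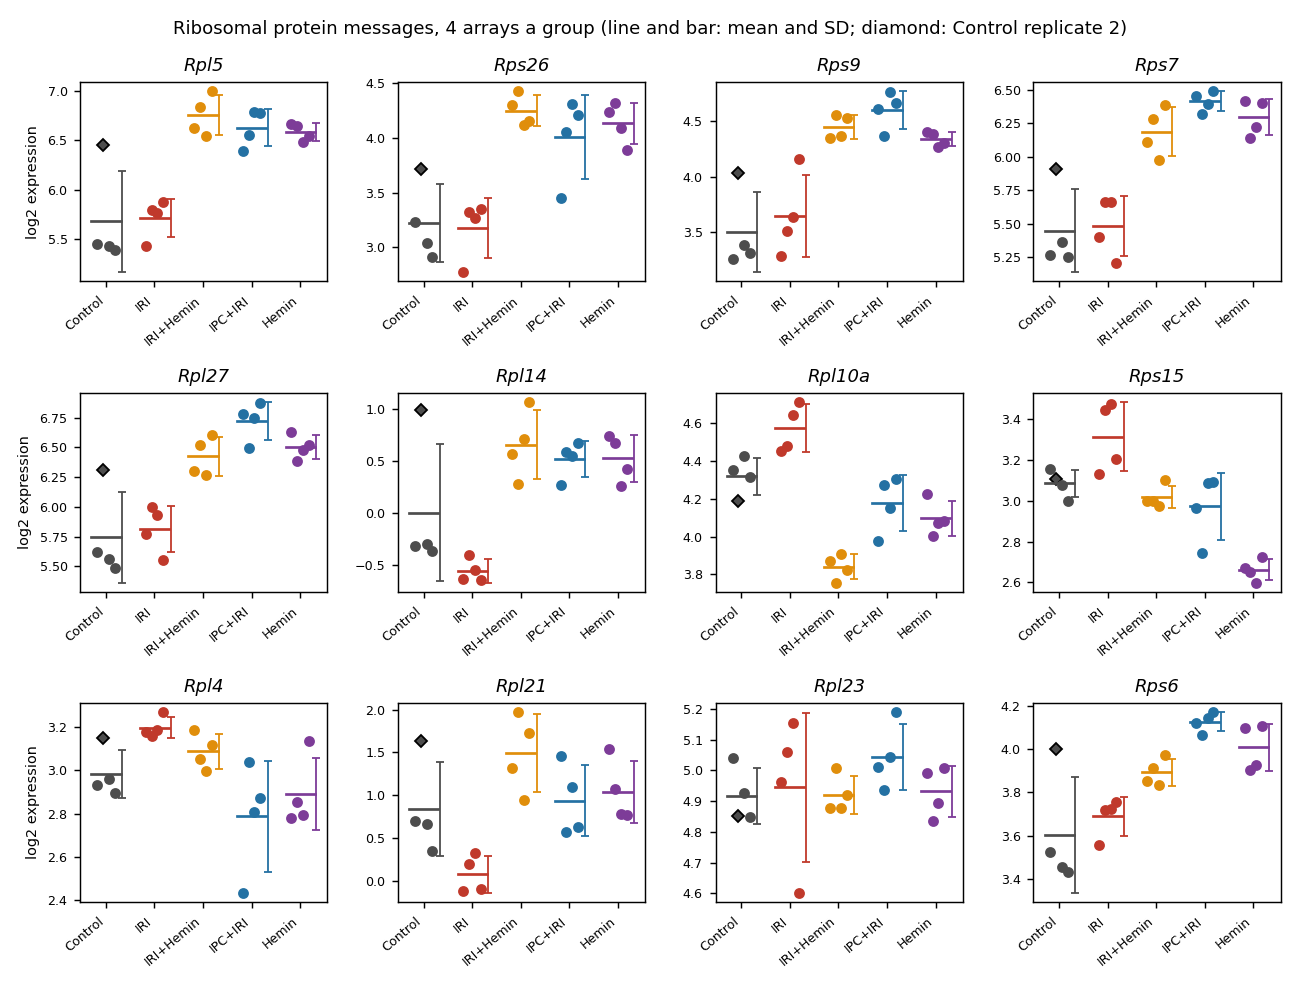
Log2 expression of 12 ribosomal protein genes on the 4 arrays of each group, with the mean as a line and the SD as a bar, and Control replicate 2 as a diamond. Rpl5, Rps26, Rps9, Rps7 and Rpl27 are called higher in IRI+Hemin, IPC+IRI and Hemin than in Control, Rpl14 is called higher in IRI+Hemin and its Control replicate 2, at 0.99, lies above all Hemin and IPC+IRI arrays, Rpl10a is lowest in IRI+Hemin at a mean of 3.84, Rps15 is lowest in Hemin at 2.66, and Rpl23 is called in no comparison.

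IPC+IRI vs Hemin was compared because both groups were scanned on 1 day, and it was chosen after the data were seen. Here 4 of 78 ribosomal protein genes were higher in IPC+IRI and 0 lower, or 5.13% higher, against 13.2% higher and 22.8% lower among 18544 genes. At an unadjusted p below 0.05 there were 9 higher and 1 lower. The median change was 0.14, against -0.15 over all genes. Rpl12 differed by 0.42, Rpl36 by 0.37, Rps16 by 0.34 and Rps15 by 0.31. In the 5 comparisons across scan days 40 to 57 of the 78 genes were called higher, or 51.3% to 73.1%, against 18.5% to 26.3% of all genes. Within a day 4 were called higher in each of the 2 comparisons, or 5.13%, against 17.1% and 13.2% of all genes. The family median minus that of all genes was 0.24 in IRI vs Control and 0.29 in IPC+IRI vs Hemin. Across days it was 0.27 to 0.58. The counts within a day moved with single arrays, to 12 higher in IRI vs Control without Control replicate 2 and to 0 called in IPC+IRI vs Hemin without IPC+IRI replicate 4.

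**Figure D4:**
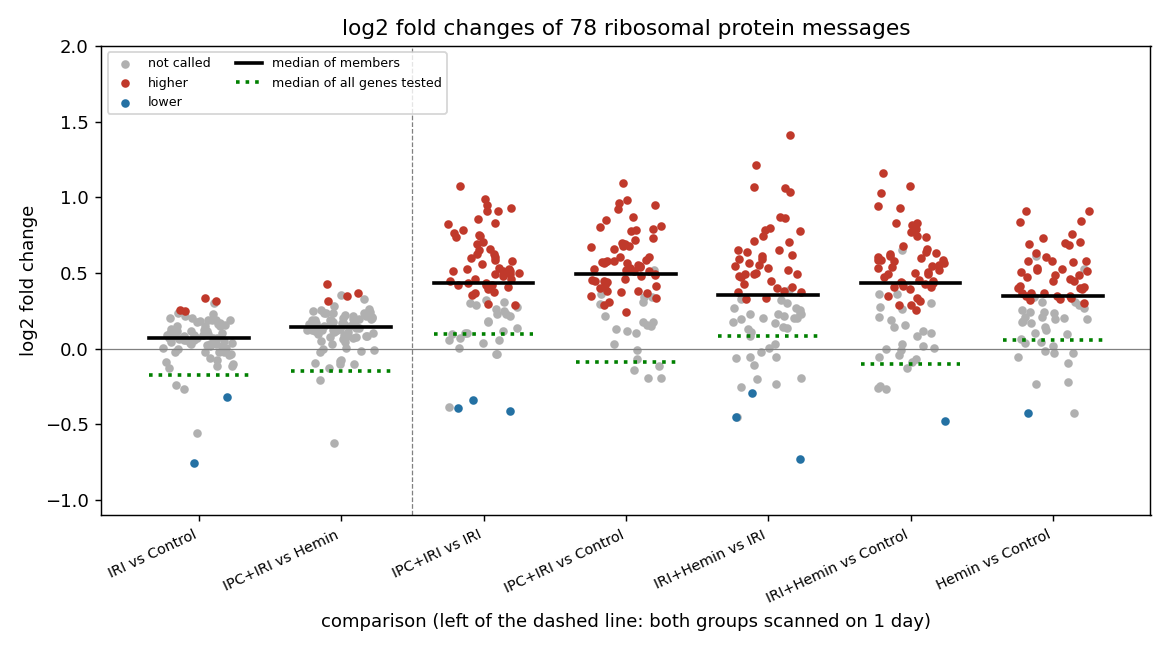
Log2 fold change of each of the 78 ribosomal protein genes (points) in 7 comparisons, red where called higher and blue where called lower, with the median of the family as a solid bar and of all genes tested as a dotted bar. The 2 comparisons left of the dashed line were scanned on 1 day and have medians of 0.07 and 0.14, and the others have medians between 0.35 and 0.49. Minus the median of all genes these are 0.24 and 0.29 left of the line and 0.27 to 0.58 right of it.

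The interaction, which tests whether hemin acted differently in injured and uninjured kidneys, was called for 0 genes higher and for 1 lower, or 1.28%, against 5.84% higher and 1.96% lower among 19064 genes. At an unadjusted p below 0.05 there were 1 higher and 2 lower. The called gene was Rpl10a, at -0.51 ± 0.14 SE (limma adjusted p = 0.0286). Its hemin difference was -0.73 in injured kidneys and -0.22 in uninjured ones, where it was not called with all arrays. In Hemin vs Control it was called lower once Control replicate 2 was left out, at -0.27 (limma adjusted p = 0.0391). Without Control replicate 2 the interaction of Rpl10a was -0.47, with an adjusted p of 0.0468 in limma. No gene was called without IRI replicate 3, IRI+Hemin replicate 2 or Hemin replicate 3.

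Ribosomal RNA probes separated the arrays in the same way as the ribosomal protein messages. Rn18s, the RNA of the small subunit, had 5.14, 7.74, 4.56 and 4.95 on the Control arrays, 3.16 to 6.11 in IRI and 7.23 to 8.05 in the other 3 groups. LOC236598, an RNA of the large subunit, had -3.64, -0.46, -3.98 and -3.80 in Control, -5.14 to -3.47 in IRI and -0.29 to 1.02 in the other groups. Control replicate 2 again lay near the other groups in both. In IRI vs Control neither was called, and both were higher in each of the 5 comparisons across scan days. IPC+IRI and Hemin differed by 0.16 for Rn18s and 0.09 for LOC236598, and neither was called. The part of whatever moves these probes in the results for ribosomal protein messages was not tested.

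**Figure D5:**
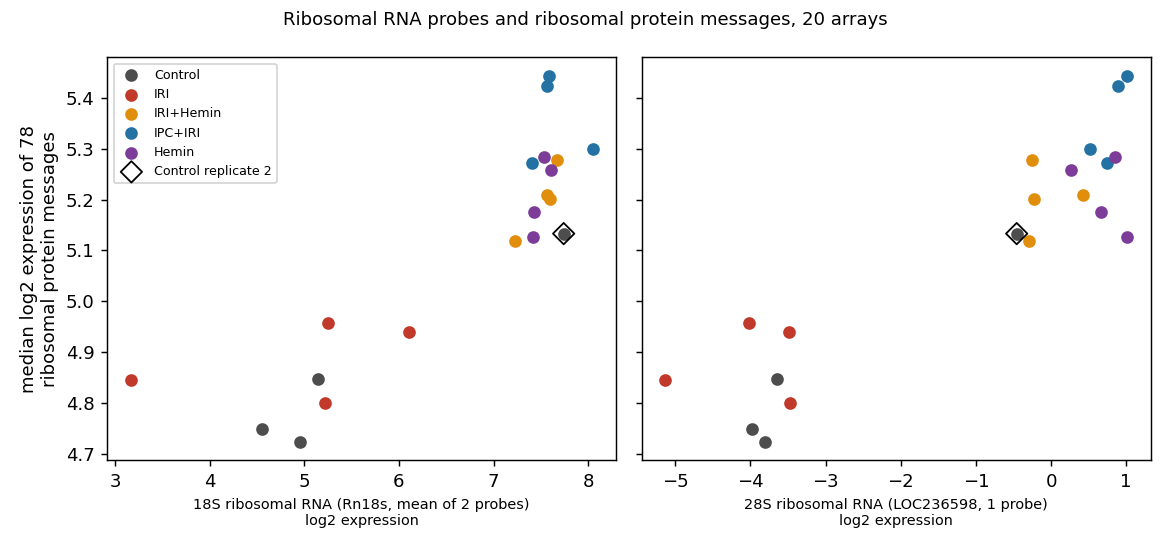
Median log2 expression of the 78 ribosomal protein genes on each of the 20 arrays (vertical axis) against the log2 expression of Rn18s (left) and LOC236598 (right). The Control and IRI arrays other than Control replicate 2 lie at the lower left, with Rn18s at most 6.11, and Control replicate 2, at 7.74, lies with the arrays of the other groups, whose lowest value is 7.23.

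The stalk proteins recruit the elongation factors. Rplp0 had 6.08, 6.32, 6.04 and 5.93 in Control, and 6.25, 6.29, 6.20 and 6.40 with hemin alone. In the injured kidneys it had 6.15, 6.18, 6.34 and 6.05 in IRI, 6.55, 6.31, 6.38 and 6.46 in IPC+IRI and 6.39, 6.39, 6.26 and 6.48 in IRI+Hemin. Rplp1 had group means of 7.39 ± 0.23 (SD) in Control, 7.65 ± 0.12 in Hemin, 7.32 ± 0.34 in IRI, 7.88 ± 0.11 in IPC+IRI and 7.55 ± 0.26 in IRI+Hemin. Rplp2 was called higher in IPC+IRI against IRI and against Control, by 0.45 in both, and in no comparison with hemin. In Hemin vs Control the 3 stalk proteins had changes of 0.12 to 0.25, and none was called. Rplp0 was called higher without Control replicate 2, at 0.27 with an adjusted p of 0.0295 in limma, while Rplp1 had 0.37 and Rplp2 0.20 without being called. In IRI+Hemin vs Control Rplp0 was called higher with all arrays, at 0.29, and Rplp1 and Rplp2 had 0.15 and 0.14 and were not called.

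Some members have known roles outside the ribosome. Rps6 had 3.52, 4.00, 3.46 and 3.43 in Control, 4.10, 3.90, 3.93 and 4.11 in Hemin and 3.56, 3.72, 3.72 and 3.76 in IRI. It had 4.12, 4.07, 4.14 and 4.17 in IPC+IRI and 3.85, 3.91, 3.83 and 3.97 in IRI+Hemin. It was higher in IPC+IRI than in IRI by 0.44, and its 0.20 in IRI+Hemin vs IRI was not called. Rpl13a, which can silence inflammatory messages, was higher in IPC+IRI vs IRI by 0.66, in IRI+Hemin vs IRI by 0.77 and in Hemin vs Control by 0.63. Rps27a, made as a fusion with ubiquitin, was higher in the same comparisons by 0.70, 0.48 and 0.47. Rps27l, a p53 target, was higher in IPC+IRI vs IRI by 0.60 and in Hemin vs Control by 0.58, and had 0.39 in IRI+Hemin vs IRI without being called. Rps20 was higher in those comparisons by 0.74, 0.73 and 0.49.

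Of the Mdm2-binding proteins, Rpl5 was among the strongest changes and Rpl23 among the smallest. Rpl23 had group means of 4.92 ± 0.09 (SD) in Control, 4.93 ± 0.08 in Hemin, 4.94 ± 0.24 in IRI, 5.04 ± 0.11 in IPC+IRI and 4.92 ± 0.06 in IRI+Hemin. As the mean of its 2 probes its largest difference was 0.13, and its groups overlapped in every comparison. The probes disagreed. The brighter one, at chr11:97639635-97642649 across an intron, differed by -0.07 to 0.14, while the dimmer one, at chr11:97638917-97638976, had means of 2.22 ± 0.17 (SD) in Control, 2.10 ± 0.21 in IRI, 2.67 ± 0.11 in IPC+IRI, 2.59 ± 0.05 in IRI+Hemin and 2.81 ± 0.14 in Hemin, and differed by 0.56 in IPC+IRI vs IRI. Both are probes of the RefSeq message and were well above background on all arrays. Rpl11 had 5.42, 5.61, 5.29 and 5.24 in Control, 5.76, 5.63, 5.58 and 5.81 in Hemin and 5.69, 5.70, 5.74 and 5.11 in IRI. It had 5.93, 5.77, 5.87 and 5.96 in IPC+IRI and 5.74, 4.53, 5.62 and 5.32 in IRI+Hemin, where replicate 2 was the lowest of all 20 arrays. Rpl11 was called in IPC+IRI vs Control, at 0.49 with an adjusted p of 0.0441 in limma, and in no other comparison. A cDNA clone probe of Rpl11 at chr4:135605957-135606016, which lies within the genomic span of the message probe, differed by 1.28 in the same comparison.

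Rps3, which also serves in DNA repair, was called higher in IPC+IRI vs Control and IRI+Hemin vs Control, by 0.35 in both. Rps14 was higher in IRI+Hemin vs IRI by 0.33, and Rpl22, a large subunit protein with a role in lymphocytes, by 0.43. Rps19, the protein most often mutated in Diamond-Blackfan anemia, was called in no comparison with all arrays, and without Control replicate 2 it was called higher in IPC+IRI vs Control, at 0.43 with an adjusted p of 0.0349 in limma. Its probe of the RefSeq message had means of 1.83 in Control, 1.34 in Hemin, 1.73 in IRI, 1.48 in IPC+IRI and 1.21 in IRI+Hemin, while a clone probe had 4.50, 4.68, 4.75, 4.93 and 4.80 in this order. The probes of Rps19 thus moved in opposite directions, and the remaining probe was well above background on no array.

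Of the 79 genes, 38 had 1 probe and 41 had 2 or more, and 112 of the 135 probes were of RefSeq messages. On all 20 arrays 126 probes were well above background, and 4 were on none. In 130 calls the gene had at least 2 probes, and in 14 of them a probe well above background in that comparison had the opposite sign, in 9 genes (Rps13, Rps6, Rpl22, Rps4x, Rpl13, Rpl24, Rps25, Rpl7a and Rps3a). In Rps13 a clone probe differed by -0.44 in IPC+IRI vs IRI and the message probe by 0.64. In Rps4x, the X-linked copy, a clone probe differed by -0.52 in Hemin vs Control and the message probe by 0.58. The probe of Rpl12 lies at chr10:29418592-29418651 and 1 of Rpl10 at chr8:96747278-96747337, on other chromosomes than their genes. No spot of these probes was saturated.

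Genes with and without CTTTC or CTTCC in the 40 bases around the start were set side by side, with no test. In IPC+IRI vs Control the 27 tested genes with a run had a median change of 0.51 and the 30 without one 0.51. In Hemin vs Control the medians were 0.39 and 0.34, in IRI+Hemin vs Control 0.51 and 0.38, in IRI vs Control 0.06 and 0.08, in IPC+IRI vs IRI 0.45 and 0.43 and in IRI+Hemin vs IRI 0.38 in both. Rpl5 and Rps26, which hold CTTTC, and Rps9 and Rpl14, which hold neither run in the window, were among the largest changes. This split does not separate messages with a TOP tract from other messages. Some of the runs counted lie before the annotated start, as in Rpl5. Rps9, Rpl14 and Rps6, counted as without a run, have other pyrimidine stretches across the start. Whether the changes differed with the TOP tract was therefore not tested.

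The related lists were counted in the other comparisons too, and their shares are read against those of all genes given above for each comparison. Of 75 mitochondrial ribosomal proteins 40 were higher and 6 lower in IPC+IRI vs IRI, or 53.3% higher against 26.3% of all genes. In IRI+Hemin vs IRI 33 were higher and 5 lower, or 44% against 26.3%, and in Hemin vs Control 39 and 3, or 52% against 18.5%. In IPC+IRI vs Control 25 were higher and 8 lower, or 33.3% against 23.2%. These were 49 and 4 in Hemin vs Control and 32 and 7 in IPC+IRI vs Control without Control replicate 2. In IRI+Hemin vs Control 16 were higher and 11 lower, or 21.3%, near the 24.4% of all genes. Without Control replicate 2, 30 of the 75 were higher and 8 lower, a larger share than the 26% of all genes that were higher. In IPC+IRI vs Hemin 3 were higher and 12 lower, or 16% lower against 22.8%.

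Of 68 assembly factors 15 were higher and 13 lower in IPC+IRI vs IRI, or 22.1% and 19.1%, near the 26.3% and 17.8% of all genes, and Eif6 fell by 0.63 and Riok2 by 0.69 there. In the other comparisons more of them were higher. These were 25 against 9 lower in IRI+Hemin vs IRI, 26 against 4 in Hemin vs Control and 20 against 2 in IPC+IRI vs Hemin, or 36.8%, 38.2% and 29.4% higher. In IPC+IRI vs Control 35 were higher and 3 lower, and in IRI+Hemin vs Control 48 and 4, or 51.5% and 70.6% higher. The counts against Control were 28 and 5 in Hemin, 39 and 4 in IPC+IRI and 48 and 4 in IRI+Hemin with Control replicate 2 left out.

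In IPC+IRI vs IRI 1 of the 14 polymerase I genes was higher and 4 lower, or 28.6% lower against 17.8% of all genes, 9 were not called and the median was 0.03. Of the 15 growth control genes 3 were higher and 6 lower, or 40% lower, 6 were not called and the median was 0.01. In IRI+Hemin vs IRI the counts were 2 and 3 for the first list and 3 and 3 for the second, and in Hemin vs Control 2 and 0, and 3 and 2. The counts for Hemin vs Control became 3 and 3, and 5 and 3, without Control replicate 2.

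Of the 17 other TOP messages 6 were higher and 1 lower in IPC+IRI vs IRI, or 35.3% higher, and 7 and 1 in Hemin vs Control, or 41.2%, where Gas5 differed by 0.59 and 0.82. Myc fell by 2.30 in IPC+IRI vs IRI, by 1.71 in IRI+Hemin vs IRI and by 1.41 in Hemin vs Control on the log2 scale, and by 1.63 in the last without Control replicate 2. Rpl22l1 was higher in these comparisons, by 0.78, 0.61 and 0.89.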

How the data were processed

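Kidney RNA samples, 20 in 5 groups of 4, were measured on 1-colour arrays. The intensity values are scanner output as deposited, a processed signal from which Agilent Feature Extraction 9.5.3.1, per the submitters' processing notes, had subtracted the background, with no step between arrays. A matrix of log2 values, deposited by the authors and taken from the same signal with 18.1% of its entries blank, served as an alternative. Spots marked as uneven or as outliers were removed, spots of a probe averaged, each array divided by its 75th percentile and the probes of a gene name averaged. Genes with more than 1 missing value, or that exceeded the background clearly on fewer than 3 of 4 arrays in both groups, were not tested. The 20 arrays were fitted in limma 3.58.1 (R 4.3.3), with 5 group means and 15 residual degrees of freedom. The Benjamini-Hochberg adjustment ran over all genes tested in a comparison. The authors used SAM with fold cutoffs on the log2 values, and no cutoff was applied here. In data simulated for IPC+IRI vs Control over 16521 genes, the fit recovered 20% of 100 genes changed by 0.5 on the log2 scale. It recovered 77% of 100 changed by 1, with 4 false calls. Only these genes were changed there, while 4266 genes were called higher and 6013 lower in IPC+IRI vs Control. The adjusted p is stricter with so few changed genes, so these shares do not give the recovery in the data. A gene that was not called may still differ.

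The members and gene lists were chosen with earlier results of these data known. Named members are the 5 largest called rises and falls of each comparison with groups apart, a fixed list with roles outside the ribosome, and members whose probes disagreed or lay at background. In other lists these are the 3 genes that changed most in IRI vs Control. IPC+IRI vs Hemin and the restriction to RefSeq message probes were added after the data were seen. Same-numbered arrays of 2 groups did not deviate together, with correlations from -0.38 to 0.21 over 16522 genes. The precision is limited by 4 arrays per group.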

Additional observations from a re-analysis of the deposited data

Results flagged for a closer look

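Arrays that lay far from the other 3 of their group were looked for in 215 groups of the named genes, the median of the family and the ribosomal RNA probes. The search marked 17, where chance alone marks about 1 in 20, or 10.8, and 10 of the 17 were Control replicate 2. On that array Rpl5 was at 6.45, Rpl27 at 6.31, Rps20 at 5.59, Rpl34 at 5.26, Rpl13a at 5.01, Rps9 at 4.03, Rps6 at 4.00, Rps19 at 3.39, Rpl14 at 0.99 and LOC236598 at -0.46. In each of these the other Control arrays were lower, for example 5.39 to 5.45 for Rpl5 and -3.98 to -3.64 for LOC236598. IPC+IRI replicate 2 was low for Rplp2 at 6.89, Rps20 at 5.74 and Rpl36 at 4.78. IRI replicate 4 was low for Rpl11, at 5.11 against 5.69 to 5.74, and IRI replicate 1 for Rps26, at 2.77 against 3.27 to 3.35. Hemin replicate 1 was high for Rpl24 at 3.59, and IRI+Hemin replicate 2 for LOC236598 at 0.43. The difference with hemin in Rpl10a differed between injured and uninjured kidneys by -0.51 in the test of the interaction. The cause of these values was not tested.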

How the results depend on the processing

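More genes were higher than lower under all 20 alternatives in IPC+IRI vs IRI, IPC+IRI vs Control, IRI+Hemin vs IRI, Hemin vs Control and IRI+Hemin vs Control, with family medians over the processing alternatives of 0.35 to 0.75, 0.31 to 0.93, 0.28 to 0.72, 0.23 to 0.91 and 0.29 to 0.92. In IRI vs Control the median ranged from -0.13 to 0.19, so its direction was not stable. Relative to the median of all genes, which moved by up to 0.57 without normalization between arrays, the family stayed higher in these 6 comparisons except with normexp in IRI vs Control, at -0.03.

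Counts called moved in IRI vs Control from 6 to 0 with normexp, 1 without normalization, 14 with the mean of log2 values, 3 without a filter and 1 with only the compared groups in the fit. In IPC+IRI vs Hemin 4 became 0 with normexp, 0 without normalization, 11 with the mean of log2 values, 1 in the deposited matrix, 2 without a filter and 7 with only the compared groups. The interaction fell from 1 to 0 with normexp, without normalization, with quantile normalization and without a filter. Hemin vs Control went from 43 to 71 without normalization, 28 with the 75th percentile of probes well above background and 18 in the deposited matrix. The matrix gave 27 for IPC+IRI vs IRI, 20 for IPC+IRI vs Control, 26 for IRI+Hemin vs IRI and 27 for IRI+Hemin vs Control. Its blanks let a gene's mean rest on different probes on different arrays. At least 2-fold and called were 0 in IRI vs Control, 1 in IPC+IRI vs IRI, 1 in IPC+IRI vs Control, 5 in IRI+Hemin vs IRI, 0 in Hemin vs Control, 3 in IRI+Hemin vs Control, 0 in IPC+IRI vs Hemin and 0 in the interaction. Leaving out each array in turn gave 3 to 12 in IRI vs Control, 47 to 55 in IPC+IRI vs IRI, 43 to 60 in IPC+IRI vs Control, 36 to 44 in IRI+Hemin vs IRI, 26 to 52 in Hemin vs Control, 43 to 57 in IRI+Hemin vs Control, 0 to 5 in IPC+IRI vs Hemin and 0 to 2 in the interaction. The replicate number as a block gave 5, 52, 54, 42, 39, 49, 3 and 1 in this order. The slide as a random block could not be fitted, since each group lies on 1 slide.

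Of 6439 values of named genes under alternatives, 5619 kept their direction and side of the threshold, 357 changed sign with neither value called, 312 lost the call, 124 gained one and 27 changed sign with a call before or after. Without normalization Rps15 was 0.067 in IRI+Hemin vs IRI and 0.14 in Hemin vs Control, and Rpl10a 0.003 in IRI+Hemin vs Control. These 3 follow from the scaling itself, which shifted the median of all genes by 0.364, 0.565 and 0.484 in these comparisons, and relative to it all 3 genes stayed lower. With the brightest probe Rpl24 was -0.104 in IRI+Hemin vs IRI and -0.024 vs Control. With the mean of log2 values Rps19 was -0.40 in IRI+Hemin vs IRI, and in IRI+Hemin vs Control Rpl11 was 0.63 and Rpl13 0.28. With RefSeq message probes only, Rps19 was -0.52 in IRI+Hemin vs IRI, -0.49 in Hemin vs Control and -0.62 in IRI+Hemin vs Control. In the deposited matrix Rpl10a was -0.037 in IRI vs Control, Rps13 -1.58, Rps20 -3.57 and Rps4x -1.51 in IPC+IRI vs IRI, Rplp0 -0.071, Rps13 -1.588, Rps20 -3.512 and Rps3 -0.25 in IPC+IRI vs Control, Rpl13 0.31, Rps25 -0.95 and Rps4x -1.88 in IRI+Hemin vs IRI, Rps20 -1.25 and Rps25 -1.64 in Hemin vs Control, and Rplp0 -0.32, Rps25 -1.94 and Rps3 -0.76 in IRI+Hemin vs Control. The cause was not tested beyond the choice of probes.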
